A study of Homo sapiens with 4 samples.

Results

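The 10 genes described here make up the route by which cytokines of the interleukin-6 family reach the transcription factor STAT3: the receptor genes IL6R, IL6ST, LIFR and OSMR, the kinase genes JAK1 and JAK2, STAT3 itself, and SOCS1, SOCS3 and PIM1, which STAT3 switches on. They were taken by gene symbol from a table of 61806 genes in which each symbol matched 1 row. Their values were not used to choose them, but earlier results of these data were known. The cells were of the U118-MG line, a cultured human glioma line kept in DMEM plus fetal bovine serum, and all of them had been infected with a lentivirus made from the pCDH-CMV-MCS-EF1-puro vector. The NC group (2 libraries) carried the negative control vector and the SPNS2 group (2 libraries) carried the same vector with the cDNA of SPNS2, a membrane transporter that exports the lipid mediator sphingosine 1-phosphate. By the vector's name the introduced gene is driven by a CMV promoter, the labels give the genotype as WT in both groups, and nothing in them says whether a group came from 1 infected population or from separate cultures. The p-values below measure only the spread between these libraries, which may be technical. The receptors of sphingosine 1-phosphate feed into STAT3 signalling, and the comparison asks how the genes of this route differ between SPNS2 and NC cells.

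Cytokines of this family bind a receptor specific to them, such as IL6R, LIFR or OSMR, and most of them signal through the shared subunit gp130, the product of IL6ST. The receptors hold JAK kinases, which phosphorylate the receptor tails and then STAT3, and STAT3 dimers enter the nucleus and bind DNA. SOCS3 and SOCS1 are induced by STAT factors and shut the kinases off, and in glioma the pathway is known for its part in mesenchymal gene expression and growth. RNA levels do not report receptor protein or phosphorylated STAT3, and neither was measured here.

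Transcripts of 6 of the 10 genes differed between the groups. LIFR and OSMR rose in SPNS2 cells, by 1.73-fold and 1.64-fold, while IL6ST, JAK2, SOCS1 and SOCS3 fell. The largest of these falls were those of the feedback genes, 6.57-fold for SOCS1 and 2.12-fold for SOCS3. STAT3 itself did not pass the test, nor did IL6R, JAK1 and PIM1. Over all 17853 genes tested the same test (edgeR's quasi-likelihood F-test, called at an adjusted p under 0.05) called 23.4%, of which 12.1% of the tested genes were higher in SPNS2 and 11.3% lower. In 9 of the 10 genes the 2 libraries of one group lay wholly above those of the other, which was also so in 66.0% of all tested genes. The median log2 fold change of the 10 genes was -0.33, beside -0.00851 over all tested genes.

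**Figure D1:**
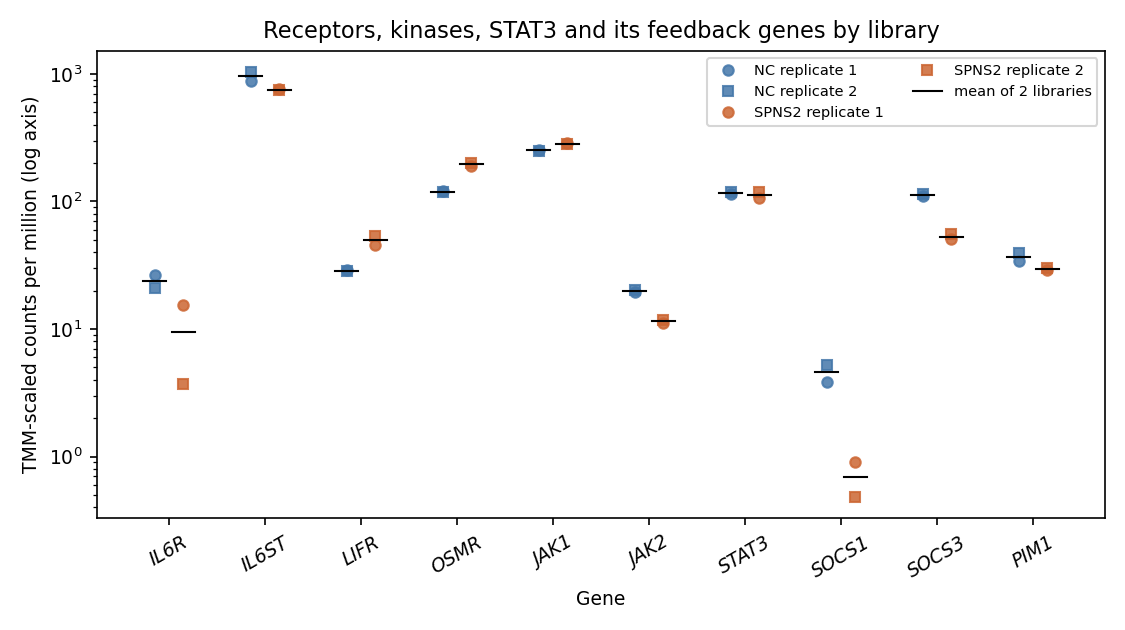
TMM-scaled CPM of the 10 genes in each of the 4 libraries, on a log axis, with the mean of each group as a bar. The SPNS2 libraries sit above NC for LIFR, OSMR and JAK1 and below it for IL6R, IL6ST, JAK2, SOCS1, SOCS3 and PIM1, and STAT3 is the gene in which the groups overlap.

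Library totals lay between 31353373 and 34125159 counts, and levels are given as CPM, counts divided by TMM-adjusted library totals. In these bulk samples fewer cells that express a gene and less RNA of it per cell cannot be told apart. The label check held: SPNS2 was at 1.31 and 1.40 CPM in NC and at 239.8 and 246 CPM in SPNS2. Differences between the libraries of one group exceeded what counting alone gives, the chi-square divided by its degrees of freedom being 20.4 for NC and 25.2 for SPNS2. Of the 9 markers of astrocytes and glioma cells, VIM, CD44 and SOX9 were present in every library (at least 4041, 335 and 65.4 CPM), whereas GFAP, AQP4 and SOX2 stayed at or below 0.238 CPM and S100B was at 0. SLC1A3, an astrocyte glutamate transporter, was at 1.12 and 0.921 CPM in NC and at 20.2 and 17.8 CPM in SPNS2 (adjusted p = 0.00158 in edgeR), VIM was also called higher (0.0205), and NES, an intermediate filament of progenitor cells, was called lower (0.0243). The 6 leukocyte markers summed to 0.561 to 2.76 CPM with AIF1 at 0, the 4 endothelial markers to 5.12 to 8.57 CPM, the 4 epithelial markers to 1.22 to 2.70 CPM and the 3 hepatocyte markers to 0 to 0.325 CPM. The leukocyte, endothelial and epithelial sums were higher in both SPNS2 libraries than in either NC library. Of the endothelial markers PECAM1 was called higher and VWF lower (adjusted p = 0.0465 for each in edgeR). VWF had 53 and 53 counts in NC and 12 and 4 in SPNS2, and it passed the low-count filter through the NC group. CDH5 had 3 and 2 counts in NC and 0 in both SPNS2 libraries, and it was not tested. The part of these markers in the results was not tested.

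Because STAT3 dimers bind the palindrome TTCNNNGAA, windows before the start sites of the 10 genes were searched for it. The 3 windows shown let a reader see 1 that holds the motif beside windows of the feedback genes that do not. Each is the 250 bases before a RefSeq start site on GRCh38.p14, written 5′ to 3′ on the strand of the gene, with the motif in capitals. The letters of the motif are the same on both strands. None of the 3 windows overlaps an exon of the GENCODE annotation. The LIFR window (chr5:38595406-38595655, minus strand) lies inside the annotated gene, in an intron. The SOCS1 window (chr16:11256205-11256454, minus strand) lies in an intron of RMI2, on whose opposite strand SOCS1 sits. The SOCS3 window (chr17:78360926-78361175, minus strand) does not adjoin the annotated gene, whose 5′ end is at 78360077. The other SOCS3 window (chr17:78359668-78359917) lies inside the gene, so the bases directly before that 5′ end were not searched.
LIFR: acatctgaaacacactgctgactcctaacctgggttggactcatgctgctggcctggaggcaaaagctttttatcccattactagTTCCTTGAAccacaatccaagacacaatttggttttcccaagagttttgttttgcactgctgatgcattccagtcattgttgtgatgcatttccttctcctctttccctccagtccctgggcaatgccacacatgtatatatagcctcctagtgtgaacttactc
SOCS1: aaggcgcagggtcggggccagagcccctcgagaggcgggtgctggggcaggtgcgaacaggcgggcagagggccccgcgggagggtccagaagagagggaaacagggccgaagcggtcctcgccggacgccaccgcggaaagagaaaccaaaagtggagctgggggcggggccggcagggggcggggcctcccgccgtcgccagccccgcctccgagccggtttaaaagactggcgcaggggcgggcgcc
SOCS3: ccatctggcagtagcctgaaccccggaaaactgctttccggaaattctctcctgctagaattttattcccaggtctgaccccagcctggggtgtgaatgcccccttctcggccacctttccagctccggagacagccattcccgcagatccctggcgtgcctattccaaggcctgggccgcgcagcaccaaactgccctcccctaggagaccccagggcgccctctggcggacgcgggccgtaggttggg
The table matched all 10 genes with 18 start sites. Only LIFR held the motif, in the window shown (TTCCTTGAA, 165 bases before the start site) and in a second window further along the gene (TTCATCGAA, 182 bases before its start site). That second window lies wholly in annotated exons. The remaining LIFR window (chr5:38556647-38556896) did not hold the motif. The motif was present in 6.57% of all 35116 windows, and 8.09% of all 27305 genes held it in at least 1 window. These are matches of letters, not sites of binding, and the windows without a match show only that the letters are missing there.

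Among the receptors, IL6ST was by far the most abundant per length of transcript. It encodes gp130, the signalling subunit shared by the receptors of interleukin-6, LIF and oncostatin M, and lies at chr5:55935095-55994993 on the minus strand (ENSG00000134352). Its level was 885 and 1034 CPM in NC and 755 and 749 CPM in SPNS2. Both SPNS2 libraries were below both NC libraries, with the NC libraries farther apart than the groups' nearest values. The fall of 0.35 on the log2 scale (SE 0.085, 95% interval -0.58 to -0.12) passed the test narrowly, at an adjusted p of 0.0497 in edgeR. The call was lost without NC replicate 2 (log2 fold change -0.24, adjusted p = 0.0941), without SPNS2 replicate 1 and without SPNS2 replicate 2 (adjusted p = 0.147 in each) and with no low-count filter (0.0594).

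LIFR and OSMR encode the receptor chains that pair with gp130 to bind leukaemia inhibitory factor and oncostatin M, and they are neighbours on the short arm of chromosome 5. LIFR (ENSG00000113594, chr5:38474963-38608354, minus strand) was at 28.8 and 28.4 CPM in NC and at 45.4 and 53.3 CPM in SPNS2. The SPNS2 libraries were both higher, and the groups did not overlap. LIFR rose by 0.79 on the log2 scale (SE 0.11, 95% interval 0.49 to 1.09, adjusted p = 0.0149 in edgeR), and the call was lost without NC replicate 1 (adjusted p = 0.0659) or NC replicate 2 (0.0673). OSMR (ENSG00000145623, chr5:38845858-38945596, plus strand) was at 121 and 117.8 CPM in NC and at 190.3 and 201 CPM in SPNS2. Here the libraries of a group were within 1.06-fold of each other, and the groups stood clearly apart. Its log2 fold change of 0.71 (SE 0.062, 95% interval 0.55 to 0.88, adjusted p = 0.00481 in edgeR) was called in each of the 14 alternatives tried.

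IL6R encodes the chain that binds interleukin-6 itself (ENSG00000160712, chr1:154405193-154469450). It was at 26.4 and 20.8 CPM in NC and at 15.3 and 3.72 CPM in SPNS2. Both SPNS2 libraries were below both NC libraries, but they differed from each other by 4.13-fold, which was as far apart as only 0.605% of the 11243 genes that averaged at least 5 CPM in SPNS2. The log2 fold change of -1.31 (SE 0.68, 95% interval -3.11 to 0.49) did not pass the test (adjusted p = 0.236 in edgeR). SPNS2 replicate 2 decided its size: the fitted value was -2.65 without SPNS2 replicate 1 (adjusted p = 0.0185) and -0.62 without SPNS2 replicate 2, where it was not called.

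Set against gp130 within each library, the receptor chains shifted. LIFR counts per kilobase of exon were 2.55% and 2.15% of those of IL6ST in NC and 4.71% and 5.58% in SPNS2. OSMR counts per kilobase were 17.7% and 14.8% of those of IL6ST in NC and 32.7% and 34.8% in SPNS2. Both ratios, which carry no test, were higher in both SPNS2 libraries, and neither depends on the scaling between libraries. IL6R per IL6ST was 4.30% and 2.90% in NC and 2.92% and 0.715% in SPNS2, where the groups overlapped.

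The 2 loci on chromosome 5 also hold other genes that moved. The median log2 fold change was 0.30 over the 150 tested genes of 5p and 0.43 over the 701 of 5q, so that LIFR and OSMR moved with the median of their arm and IL6ST against that of its arm. With the median of each arm removed, LIFR was at 0.48 (adjusted p = 0.0521, not called), OSMR at 0.41 (adjusted p = 0.0195) and IL6ST at -0.78 (adjusted p = 0.00913), all from edgeR. Of all tested genes 12.1% were called higher and 11.3% lower. On 5p, 46 of 150 were called higher and 10 lower, and on 5q 239 of 701 were called higher and 30 lower. Within 1 Mb of OSMR, 3 of 8 other tested genes were called higher and 0 lower. They were LIFR, RICTOR (0.39), a subunit of the kinase complex mTORC2, and DAB2 (0.46), an endocytic adaptor. Within 1 Mb of IL6ST, 4 of 16 other tested genes were called higher and 3 lower. The neighbour of IL6ST, IL31RA, encodes a further receptor of the family and fell the most of these. Copy number was not measured, and its part in these values was not tested.

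**Figure D2:**
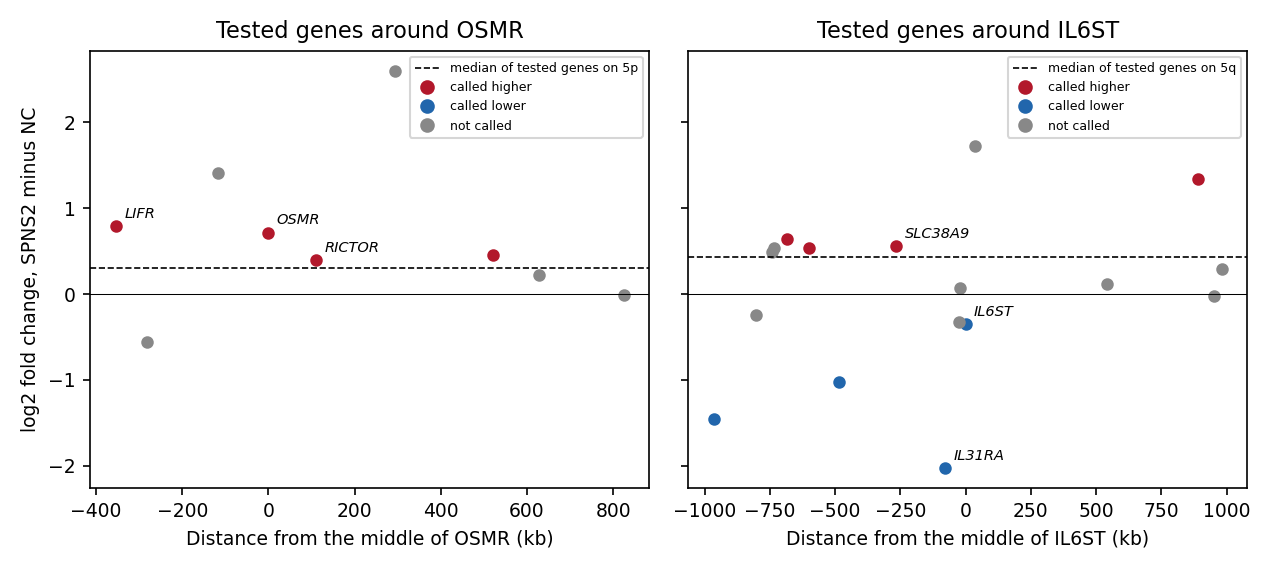
Log2 fold change of each tested gene within 1 Mb of the middle of OSMR (left) and of IL6ST (right), against its distance in kb, with calls in colour and the median of the arm as a dashed line. LIFR, OSMR and RICTOR lie above the 5p median of 0.30, whereas IL6ST at -0.35 and IL31RA at -2.03 lie below the 5q median of 0.43.

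The strand setting of the counting is not given in the sources used here, so reads in exons shared with a gene on the opposite strand cannot be assigned with certainty. OSMR shares 229 exon bases with RICTOR, which had 59.96% as many counts over the 4 libraries (2724 and 2635 in NC, 3123 and 3759 in SPNS2) and was itself called higher. LIFR shares 629 with LIFR-AS1, IL6ST shares 797 with an antisense gene that had 0.273% as many counts, and JAK1 shares 4 with RAVER2. LIFR-AS1 had 50 and 44 counts in NC and 20 and 43 in SPNS2, against 922 to 1779 counts of LIFR. SOCS1 lies inside RMI2 but shares no exon base with it.

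**Figure D3:**
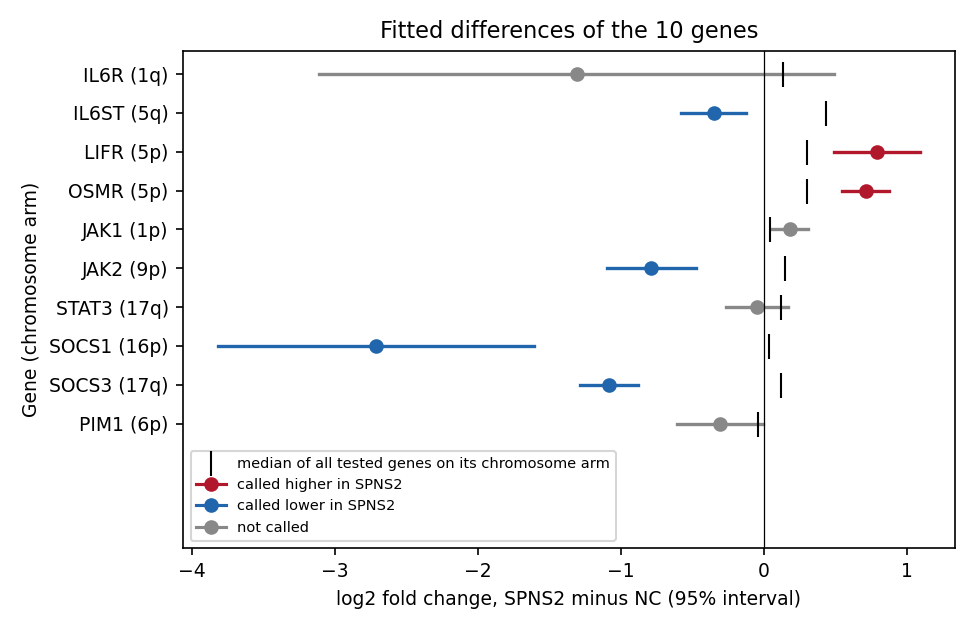
Fitted log2 fold change of each of the 10 genes, SPNS2 minus NC, with its 95% interval, coloured by call, and a tick at the median of all tested genes on the gene's chromosome arm. The intervals of SOCS1, SOCS3, JAK2, IL6ST and PIM1 lie wholly below 0 and those of LIFR, OSMR and JAK1 above it, though PIM1 and JAK1 were not called. The intervals of STAT3 and IL6R include 0, that of IL6R spanning -3.11 to 0.49.

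Of the 2 kinase genes, 1 fell. JAK1 is the kinase on which gp130 signalling chiefly depends (ENSG00000162434, chr1:64833229-64966504), and it was at 252 and 249.6 CPM in NC and at 285 and 283 CPM in SPNS2. The groups did not overlap and the libraries within them were close, but the log2 fold change of 0.18 (SE 0.049, 95% interval 0.05 to 0.31) was not called (adjusted p = 0.0675 in edgeR) and was not called in any of the 14 alternatives. JAK2, a kinase that the gp130 receptors share with growth hormone and erythropoietin receptors (ENSG00000096968, chr9:4984390-5128183), was at 19.6 and 20.1 CPM in NC and at 11.2 and 11.8 CPM in SPNS2. Both SPNS2 libraries were lower. JAK2 had a log2 fold change of -0.79 (SE 0.12, 95% interval -1.10 to -0.47, adjusted p = 0.0163 in edgeR), and leaving out any 1 of the 4 libraries lost the call (adjusted p = 0.063 to 0.0817). JAK2 counts per kilobase were 7.98% and 8.24% of those of JAK1 in NC and 4.02% and 4.28% in SPNS2.

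STAT3 (ENSG00000168610, chr17:42313324-42388568) was at 114 and 119 CPM in NC and at 106 and 119 CPM in SPNS2. The groups overlapped. Its log2 fold change was -0.05 (SE 0.081, adjusted p = 0.697 in edgeR), and its 95% interval of -0.27 to 0.17 leaves room for a fold of 0.831 to 1.12. The STAT genes beside it on chromosome 17 gave other values: STAT5B rose, and STAT5A, whose SPNS2 libraries lay far apart, was not called.

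The feedback genes fell. SOCS3 encodes the inhibitor that binds both gp130 and the JAK kinases and is a standard marker of STAT3 activity (ENSG00000184557, chr17:78356778-78360077). It was at 109.7 and 115 CPM in NC and at 50.7 and 55.1 CPM in SPNS2. The SPNS2 libraries were both below the NC libraries, and libraries of a group differed by at most 1.09-fold. SOCS3 had a log2 fold change of -1.08 (SE 0.075, 95% interval -1.28 to -0.88, adjusted p = 0.00318 in edgeR), and it was called in each of the 14 alternatives. SOCS1, an inhibitor of JAK catalysis best known from interferon signalling (ENSG00000185338, chr16:11254405-11256200), was scarce. It had 124 and 177 counts in NC and 28 and 16 in SPNS2, or 3.87 and 5.26 against 0.910 and 0.480 CPM. Both SPNS2 libraries were far below both NC libraries. The log2 fold change was -2.72 (SE 0.41, 95% interval -3.82 to -1.61, adjusted p = 0.0173 in edgeR), and the call was lost without NC replicate 2 (-2.48, adjusted p = 0.072).

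PIM1 encodes a serine/threonine kinase that is a target of STAT3 and STAT5 and promotes survival (ENSG00000137193, chr6:37170203-37175426). It was at 33.9 and 39.2 CPM in NC and at 28.8 and 30.2 CPM in SPNS2. Both SPNS2 libraries were lower, but the log2 fold change of -0.31 (SE 0.11, 95% interval -0.61 to -0.004) was not called (adjusted p = 0.129 in edgeR).

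The 3 target genes were also set against STAT3 within each library. SOCS3 counts per kilobase were 310% and 309% of those of STAT3 in NC and 154% and 149% in SPNS2. SOCS1 was at 16.6% and 21.6% of STAT3 in NC and at 4.19% and 1.98% in SPNS2, and PIM1 at 87.9% and 97.3% against 80.2% and 75.2%. All 3 ratios were lower in both SPNS2 libraries, but libraries that do not overlap are common here (66.0% of tested genes in CPM), the ratios carry no test, and PIM1 itself was not called.

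**Figure D4:**
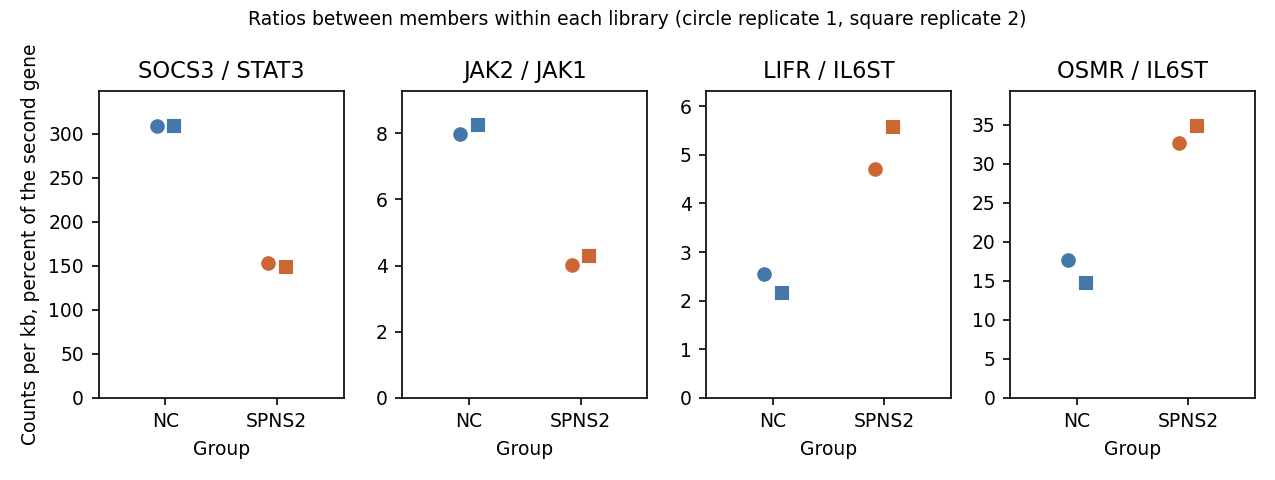
Counts per kilobase of exon of 1 gene as a percent of those of another within each library (circle, replicate 1; square, replicate 2), each axis starting at 0. SOCS3 per STAT3 goes from 310% and 309% in NC to 154% and 149% in SPNS2, and JAK2 per JAK1 also lies lower, while LIFR and OSMR per IL6ST lie higher in both SPNS2 libraries.

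The order of the levels per length changed with these differences. In NC, IL6ST led with 103 CPM per kilobase, followed by SOCS3 at 41.0, JAK1 at 39.7, OSMR at 16.6, STAT3 at 13.3, PIM1 at 12.3, IL6R at 3.66, JAK2 at 3.22, SOCS1 at 2.54 and LIFR at 2.41 CPM per kilobase. Library values overlapped between STAT3 and PIM1, between IL6R and JAK2 and between SOCS1 and LIFR. In SPNS2, IL6ST was at 80.9 CPM per kilobase, JAK1 at 44.9, OSMR at 27.3, SOCS3 at 19.3, STAT3 at 12.8, PIM1 at 9.92, LIFR at 4.16, JAK2 at 1.87, IL6R at 1.48 and SOCS1 at 0.387. Only JAK2 and IL6R overlapped there. SOCS3 thus stood narrowly above JAK1 and well above OSMR in NC and below both in SPNS2, and LIFR moved from the last place to the seventh.

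The other genes of the pathway were read from 6 lists that together hold 66 genes, of which 54 passed the filter on low counts. Of these 6 were called higher, 12 lower and 36 were not called, and the 12 that were not tested include 5 with no count in any library. The share called, 18 of 54, stands beside the 23.4% of all tested genes (12.1% higher, 11.3% lower) and is a description of these lists. The genes called lower include FGG and LBP, which had counts in NC alone and could only be called lower. 

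Among the ligands of gp130 receptors, 7 of 10 were tested, and 1 rose, 1 fell and 5 were not called (median log2 fold change -0.13). IL6, the pro-inflammatory ligand of IL6R, was at 7.64 and 8.89 CPM in NC and at 4.16 and 3.60 CPM in SPNS2, a log2 fold change of -1.09 (SE 0.19, adjusted p = 0.0244 in edgeR). IL11, the ligand of IL11RA, was at 4.46 and 4.73 CPM in NC and at 8.45 and 8.75 CPM in SPNS2, a log2 fold change of 0.90 (SE 0.16, adjusted p = 0.0251 in edgeR). These 2 low-level ligands moved in opposite directions, and both calls were lost when any 1 library was left out (adjusted p = 0.066 to 0.099 for IL6 and 0.0756 to 0.103 for IL11). LIF, the ligand of LIFR, was the most abundant ligand in CPM at 248 and 211 in NC and 251 and 216 in SPNS2, where the groups overlapped (adjusted p = 0.905). OSM, the ligand of OSMR, was at 0 in 3 libraries and at 0.130 CPM in SPNS2 replicate 1.

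Of the other receptor chains, 3 of 4 were tested and only IL31RA was called. Its product pairs with OSMR, without gp130, to bind interleukin-31. It was at 24.1 and 28.2 CPM in NC and at 6.59 and 6.23 CPM in SPNS2, so that every SPNS2 library was far below every NC library. IL31RA had a log2 fold change of -2.03 (SE 0.14, adjusted p = 0.00328 in edgeR), called in each of the 14 alternatives. OSMR and IL31RA, the chains of 1 receptor, thus differed in opposite directions. IL11RA reached at most 0.36 CPM and CNTFR at most 0.0594 CPM.

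Of the other kinases and STAT genes, 7 of 8 were tested, 1 rose and 3 fell (median log2 fold change -0.33). STAT6, the factor that acts below interleukin-4 and interleukin-13, had 1538 and 1686 counts in NC and 44 and 48 in SPNS2. At 48.0 and 50.1 CPM against 1.43 and 1.44 CPM it was 34.1-fold lower, a log2 fold change of -5.09 (SE 0.12, adjusted p = 0.000593 in edgeR). Among the 10 genes above, the fall furthest from 0 was that of SOCS1, at -2.72. STAT5B, which acts below growth hormone and cytokine receptors, was at 21.8 and 25.6 CPM in NC and at 45.4 and 44.2 CPM in SPNS2, a log2 fold change of 0.92 (SE 0.12, adjusted p = 0.0117 in edgeR). Both of these calls held in each of the 14 alternatives. STAT2, a factor of interferon signalling, fell by 0.33 on the log2 scale (SE 0.073, adjusted p = 0.0403 in edgeR), and its call was lost when any 1 library was left out (adjusted p = 0.103 to 0.15). STAT5A was at 3.37 and 3.66 CPM in NC and at 1.40 and 0.0599 CPM in SPNS2 (adjusted p = 0.223), and it was called without SPNS2 replicate 1 (log2 fold change -5.77, adjusted p = 0.0167). TYK2, a further JAK kinase of these receptors, was at 82.5 to 89.2 CPM in all 4 libraries (adjusted p = 0.749).

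Of the other feedback genes and phosphatases, 11 of 12 were tested, and 2 rose, 0 fell and 9 were not called (median log2 fold change 0.10). PTPN1, a phosphatase that acts on JAK2 and TYK2, was at 115 and 111 CPM in NC and at 208 and 204 CPM in SPNS2, a log2 fold change of 0.87 (SE 0.058, adjusted p = 0.00302 in edgeR), called in each of the 14 alternatives. SOCS5 was at 114 and 106 CPM in NC and at 154 and 159.5 CPM in SPNS2, a log2 fold change of 0.51 (SE 0.068, adjusted p = 0.0127 in edgeR), and its call was lost without NC replicate 2 (0.0617) or SPNS2 replicate 2 (0.0565). SOCS family members thus did not move as 1 group: SOCS1 and SOCS3 fell, SOCS5 rose, and SOCS2, SOCS4, SOCS6, SOCS7 and CISH were not called. SOCS7 was at 3.12 and 3.21 CPM in NC but at 23.9 and 5.60 CPM in SPNS2, with a wide gap between the SPNS2 libraries. It was not called by edgeR (adjusted p = 0.0997), but it was called by DESeq2 (adjusted p = 0.00248) and without SPNS2 replicate 2 (log2 fold change 2.92, adjusted p = 0.0109). SOCS2 was at 12.3 and 9.96 CPM in NC and at 7.89 and 2.55 CPM in SPNS2 (adjusted p = 0.232), and it was called lower without SPNS2 replicate 1 (-2.11, adjusted p = 0.0292). Of the other PIM kinases, PIM3 rose by 0.35 on the log2 scale (SE 0.081, adjusted p = 0.045 in edgeR), a call that held in 5 of 14 alternatives and in none with a library left out (adjusted p = 0.115 to 0.167), and PIM2 was not called.

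Of 30 further genes listed as STAT3 targets, 24 were tested, 1 rose, 7 fell and 16 were not called (median log2 fold change -0.12). Of all tested genes 12.1% were called higher and 11.3% lower. HIF1A, the hypoxia-inducible factor, was at 1530 and 1503 CPM in NC and at 880 and 919 CPM in SPNS2, a log2 fold change of -0.75 (SE 0.044, adjusted p = 0.00234 in edgeR). ICAM1, an adhesion molecule for leukocytes, was at 48.4 and 47.1 CPM in NC and at 27.5 and 23.8 CPM in SPNS2, a log2 fold change of -0.90 (SE 0.11, adjusted p = 0.0106 in edgeR). In both genes the groups lay well apart, and the call of ICAM1 was lost without NC replicate 1 (adjusted p = 0.0513). FGG and LBP encode acute-phase proteins of the liver, and both had counts in NC alone. FGG had 196 and 195 counts in NC and 0 in both SPNS2 libraries, at least 127-fold lower when a floor of 3 counts is set for that group. LBP had 65 and 54 counts in NC and 0 in SPNS2, at least 38.8-fold lower against the same floor, and its call was lost without NC replicate 1 (adjusted p = 0.0693) or NC replicate 2 (0.0558). FGG and LBP passed the low-count filter through the NC group only, so they could only be called lower. Both are among the 7 that fell, and their calls say nothing about the direction of the list. The hepatocyte marker ALB was at 0 in every library.

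The remaining called targets were smaller or less stable. CEBPD, a factor of the acute-phase response, fell by 1.06 on the log2 scale (adjusted p = 0.0227 in edgeR), and lost its call when any 1 library was left out (0.0561 to 0.0942). CHI3L1, a secreted marker of mesenchymal glioma, was at 31.2 and 19.4 CPM in NC and at 9.23 and 9.05 CPM in SPNS2, a log2 fold change of -1.47 (SE 0.26, adjusted p = 0.0248 in edgeR), with the call lost without either SPNS2 library (0.0933 and 0.0967). BCL6, a transcriptional repressor, was the 1 target called higher, by 0.47 on the log2 scale (adjusted p = 0.0261 in edgeR). It was not the only target with a fitted value above 0, but the others were not called. Its call was lost when any 1 library was left out (log2 fold change 0.45 to 0.50). CCND1, the cyclin of G1 phase, fell by 0.26 on the log2 scale (adjusted p = 0.0233 in edgeR), but it lies on 11q, where the median of all tested genes was -0.39, and with the arm medians removed its value was 0.13. Its call was also lost without NC replicate 1 (0.0667), NC replicate 2 (0.0953) or SPNS2 replicate 1 (0.0737). The targets include genes that answer to other factors as well, and the list was written with earlier results of these data known.

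**Figure D5:**
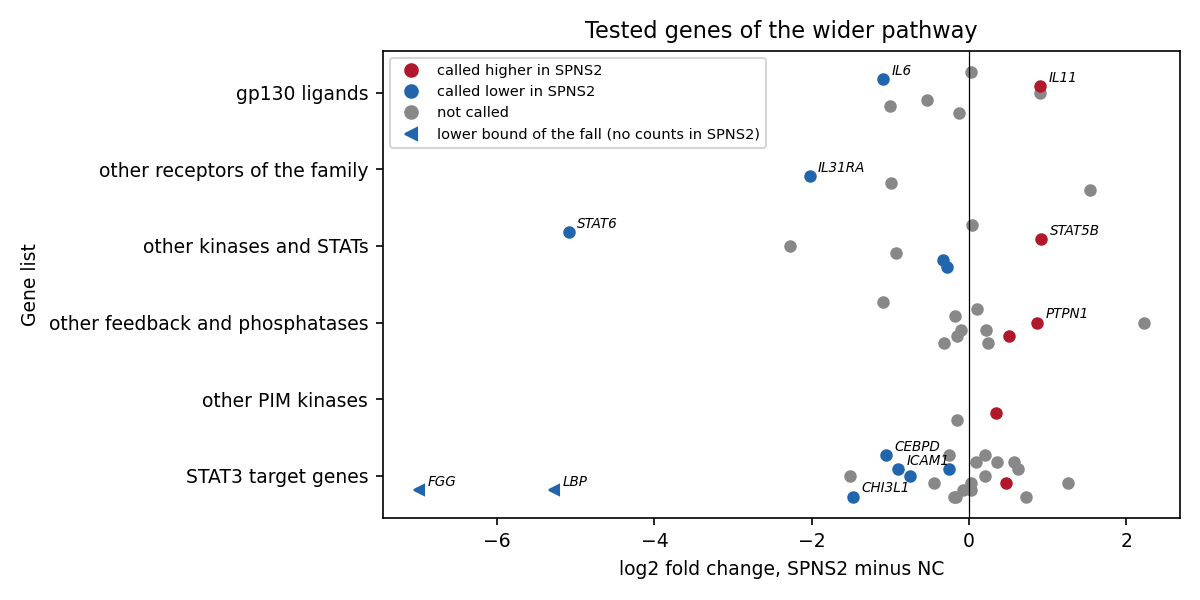
Log2 fold change, SPNS2 minus NC, of each tested gene in the 6 lists, coloured by call, with FGG and LBP drawn as arrowheads at their bounds against the floor of 3 counts. STAT6 at -5.09 lies apart from the other kinases and STATs. Among the STAT3 targets 7 genes were called lower, FGG and LBP included, and 1 higher.

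Transcripts of the sphingosine 1-phosphate receptors, which are known to feed into STAT3 signalling, did not move together. S1PR3 rose by 0.81 (SE 0.083, adjusted p = 0.007 in edgeR) and S1PR2 fell by 0.82 (SE 0.11, adjusted p = 0.0123) on the log2 scale, the latter not called without NC replicate 2 (0.0647) or SPNS2 replicate 1 (0.0552). S1PR1 and S1PR5 were not called, and S1PR4 had no counts.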

How the data were processed

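RNA of 2 NC and 2 SPNS2 libraries was sequenced, and the authors deposited the unnormalized count of reads for each Ensembl gene. Per the submitters' processing notes, Trim Galore 0.6.9, HISAT2 2.2.1, featureCounts 0.3 and hg38 were used. The sources used here do not give the annotation release or the strand and multiple-mapping settings. Of the table, 1 row of text without counts was left out.

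Genes were kept by filterByExpr (minimum count 10, minimum total 15), scaled by TMM and tested in edgeR 4.0.16 (R 4.3.3) by its quasi-likelihood F-test, two-sided, group only, with Benjamini-Hochberg adjustment over all 17853 tested genes. All 10 members passed the filter. A standard error is the log2 fold change divided by the square root of F. Positions and exon lengths (union of annotated exons, for CPM per kilobase) came from GENCODE release 29 on GRCh38 by Ensembl identifier, and promoter sequences from RefSeq. The fit was tested on simulated data. Alternatives were DESeq2 1.42.0, limma-voom (limma 3.58.1) and those named in the closing section.

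The named genes were all members, any gene of the pathway lists other than STAT3 targets, the 8 called STAT3 targets with the smallest p, up to 3 tested neighbours on each side of a member and SPNS2. The members and lists were chosen with earlier results of these data known. The values of some listed genes are not reported here, but they stayed in the counts.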

Additional observations from a re-analysis of the deposited data

How the results depend on the processing

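Over 14 alternatives, 124 of 140 member values stayed on their side of the threshold, 15 lost the call, 1 gained it (IL6R without SPNS2 replicate 1) and 0 called values turned direction. STAT3, never called, ranged from -0.17 to 0.05. Of 808 pathway gene values 743 stayed on their side, 55 lost the call, 9 gained it and 1 called value turned: CCND1, at 0.13 with the arm medians removed. That alternative was chosen with earlier results known. With 1 library left out, 1712 to 2144 genes were called against 4171, 2 to 5 members against 6 (2 without NC replicate 2) and 10 to 12 pathway genes, S1P receptors included, against 20. The lone library is then assumed to vary like the other group, and fewer samples remain. Without NC replicate 1, NC replicate 2, SPNS2 replicate 1 and SPNS2 replicate 2, respectively, the genes called were 1712, 1759, 2144 and 1965, and the pathway genes called were 11, 10, 12 and 12. With the replicate number as a block, 1976 genes, 3 members and 12 pathway genes were called. The calls of IL6ST (adjusted p = 0.0825), JAK2 (0.0535) and SOCS1 (0.0566) were lost with the replicate block, and the cause was not tested. Deviations of same-numbered libraries correlated at -0.0497 over the tested genes (log2 CPM, pseudocount 1). Whether libraries of the same number belong together was not tested. Of the 20 pathway calls, 7 held with every library left out in turn and 7 with none. Other scalings moved the median of all genes by 0.00371 (RLE), -0.0464 (upper quartile) and -0.0559 (library totals) on the log2 scale. With 2 libraries a group, changes of the size of JAK1 (0.18) and PIM1 (-0.31) were not called at this depth.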

Other observations

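The libraries within a group were far apart in a few genes of the pathway, while the median gene with a mean of at least 5 CPM differed by 1.08-fold between the libraries of a group. In SPNS2, SOCS7 differed by 4.27-fold and SOCS2 by 3.10-fold, beside the 4.13-fold of IL6R, and these gaps were reached by 0.569%, 0.952% and 0.605% of 11243 genes. SOCS7 was higher in SPNS2 replicate 1, as were IL6R and SOCS2. MYC, named after its values were seen, was at 5.68 and 34.4 CPM in NC and at 52.5 and 9.29 CPM in SPNS2, and it was not called (adjusted p = 0.737 in edgeR).

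Transcripts divergent from the receptor genes had few counts. OSMR-DT had 11 and 20 counts in NC and 43 and 37 in SPNS2, and IL6ST-DT had 10 and 4 in NC and 22 and 24 in SPNS2. Neither was called (edgeR adjusted p = 0.1 and 0.129). IL6ST-DT and IL6ST itself lay on opposite sides of 0, with log2 fold changes of 1.72 and -0.35.

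Further neighbours of members were called, where 12.1% of all tested genes were called higher and 11.3% lower. CD274, the immune checkpoint ligand PD-L1 and the second tested gene after JAK2 on 9p, had a log2 fold change of 1.95 (SE 0.25, adjusted p = 0.0115 in edgeR), where JAK2 had -0.79. Of the 6 neighbours of JAK1, 2 were called higher, 1 lower and 3 were not called. ROR1, the third tested gene before JAK1, fell by 3.66 on the log2 scale (SE 0.13, adjusted p = 0.00111 in edgeR). RAVER2 rose by 0.98 (adjusted p = 0.0212 in edgeR) and DNAJC6 by 1.73 (0.00423) on the same scale. Around STAT3, CAVIN1 rose by 0.47 on the log2 scale (SE 0.043, adjusted p = 0.00553 in edgeR).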
